A study of Mus musculus with 3 samples.

Results

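The IL-6 family and STAT3 signalling genes described here are 10 mouse genes: the ligands Il6 and Lif, the receptor subunits Il6st and Osmr, the transcription factor Stat3, the feedback inhibitors Socs3 and Socs1, the kinase Pim1, and the transcription factors Cebpb and Cebpd. They were chosen by name, and each symbol matched 1 locus of the 24401 loci in the deposited gene table, so all 10 were measured. RNA was sequenced from C2C12 myotubes, which are muscle fibres grown from a mouse myoblast line and had been differentiated for 72 hours in medium with horse serum and insulin. The 3 libraries came from myotubes kept for 24 hours in DMEM (control), in medium conditioned for 24 hours by S2-013 cells, a human pancreatic cancer line (conditioned media), or in such medium to which the plant polyphenol resveratrol was added at 50 µM. The labels give the cell type as myoblast, while the protocol describes differentiated cells. Each condition has 1 library of this 1 cell line and there is no library of resveratrol in DMEM, so no difference below has a replicate check, and what resveratrol does without conditioned medium was not measured here.

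Cytokines of the IL-6 family bind a ligand-specific receptor and then share the signalling subunit gp130, the product of Il6st. The receptor complex activates JAK kinases, which phosphorylate STAT3, and STAT3 enters the nucleus and induces genes that include its own inhibitor Socs3, the kinase Pim1 and the C/EBP factors. In skeletal muscle the pathway is known for roles in satellite cell growth, in the acute phase response and in the muscle wasting that accompanies cancer. C/EBPβ, the product of Cebpb, was also named NF-IL6 for binding the IL-6 gene.

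Levels are the authors' FPKM, a fragment count scaled by transcript length and library size (how the libraries were scaled to each other is not stated), and each set of 3 levels names control first, then conditioned media, then resveratrol in conditioned media. Log2 ratios were taken after adding 1 to each FPKM, so differences of low genes are understated. The size rule calls a gene higher or lower at an absolute log2 ratio of 1 or more with a mean FPKM over the 3 libraries of 1 or more, a rule that 11858 loci could meet. All 10 members passed this filter on level. No read counts accompany the FPKM values, so depth is unknown, and the error beside a gene is the standard error that the authors' deposited table implies by its fold change and test statistic. That error describes these libraries, not replicate cultures.

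Sequences upstream of a pair of members are shown because one gene had its highest and the other its lowest level with resveratrol, and because their promoters hold different motifs. Il6 lies on the plus strand of chromosome 5, and the 250 bases before its RefSeq start, chr5:30012864-30013113 of GRCm38.p6 (the mm10 assembly), overlap no exon that GENCODE gives to Il6. Capitals mark, in order, an AP-1 motif (TGANTCA), a C/EBP motif (TTGNGCAAT) and a κB motif (GGANTTTCC):

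Il6: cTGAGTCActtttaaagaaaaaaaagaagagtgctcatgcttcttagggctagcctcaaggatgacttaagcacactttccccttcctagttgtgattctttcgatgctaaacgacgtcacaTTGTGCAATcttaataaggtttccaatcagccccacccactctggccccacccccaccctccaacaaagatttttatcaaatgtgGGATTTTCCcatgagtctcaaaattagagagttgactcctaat

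Socs1 lies on the minus strand of chromosome 16, and its 250 upstream bases are chr16:10785537-10785786, written on the gene's strand. Capitals mark a pair of overlapping interferon response motifs (GAAANNGAA):

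Socs1: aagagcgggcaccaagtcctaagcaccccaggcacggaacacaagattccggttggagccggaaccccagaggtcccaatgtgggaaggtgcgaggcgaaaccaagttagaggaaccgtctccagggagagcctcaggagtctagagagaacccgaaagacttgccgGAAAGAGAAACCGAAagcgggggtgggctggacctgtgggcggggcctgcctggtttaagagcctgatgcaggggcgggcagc

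The motifs were looked for on both strands in 300-base windows, 250 bases before and 50 after a RefSeq start, which were held for 9 of the 10 members (not Cebpd). The C/EBP motif was found in 0.597% of 32817 windows of all genes, the κB motif in 1.26%, the AP-1 motif in 7.81% and the interferon response motif in 8.55%. These motifs were chosen after the promoters of members had been read. The shares therefore cannot say how unusual a match in a member is. Among the 9 members, the C/EBP and κB motifs were found in Il6 alone, the interferon response motif in Socs1 alone, and the AP-1 motif in Il6, Lif and Osmr. The STAT motif TTCNNNGAA, which 8.29% of windows hold, was found in the window of Socs3 alone, as TTCTTAGAA at chr11:117969512-117969520. The string TTGCNNCAA, which was searched as a further C/EBP motif and is not a palindrome, was in 2.08% of windows and in none of the 9. The RefSeq start of Socs3 lies 681 bases inside the span that GENCODE gives the gene, so this window is within the gene. That of Osmr lies 656 bases inside its gene, and all 250 bases before it are in GENCODE exons. The AP-1 match of Osmr is 3 to 9 bases after that start, not upstream of it. A match is a run of letters and not a measured binding site.

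Myotube markers were at 1 FPKM or more in every library for 10 of 10 genes, with a summed level of 4945, 4292 and 6254 FPKM. Ckm (60.8, 56.3 and 43.2 FPKM) and Ttn (20.0, 10.1 and 7.34 FPKM) descended, while the other genes of the list were highest with resveratrol. Of 7 macrophage and leukocyte markers, Ptprc and Adgre1 were listed at 0 in all 3 libraries and the list summed to between 6.62 and 8.83 FPKM. Most of that sum was Cd14, at 5.52, 6.53 and 4.14 FPKM. Cd68 stood at 1.02, 1.49 and 1.82 FPKM, and the others stayed below 1 FPKM. The 4 endothelial markers summed to at most 0.443 FPKM and the 4 adipocyte markers to at most 0.425 FPKM. Fibroblast markers summed to 2736, 3685 and 2548 FPKM, mostly through Col1a1 and Col3a1, with 1 of 7 lower by the size rule in resveratrol over conditioned media. Myoblast and reserve cell markers summed to 296, 359 and 379 FPKM, with 1 of 6 lower in that comparison. The genes of this list did not move together. Sdc4 ascended (80.6, 117 and 174 FPKM), while Myf5 (10.9, 9.23 and 2.69 FPKM) and Pax7 (1.04, 0.699 and 0.271 FPKM) descended. Cd34 and Itga7 were highest in conditioned media, and Chrdl2 was listed at 0. Markers of dividing cells moved with resveratrol, since 7 of 8 were lower by the size rule and their sum was 204, 270 and 52.6 FPKM. Beside these 7 of 8, and the 1 of 7 and 1 of 6 above, 4.97% of all loci were lower in resveratrol over conditioned media. The part of dividing cells in the differences below was not tested. In bulk RNA, a different number of cells of a type and a different amount of RNA per cell cannot be told apart.

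The first comparison sets the conditioned media library against the DMEM control. Of the 10 genes, 9 had higher values and Lif a lower one, and Pim1 and Cebpd were higher by the size rule. None was lower by it. Over all loci, 1.98% were higher and 0.751% lower by the same rule, and the median log2 ratio was 0.63 for the 10 genes against -0.011 for all loci. The authors' deposited table calls 8 of the 10 higher and 0 lower, where it calls 25.8% of its tested loci higher and 29.9% lower. Those calls compare 1 library with 1 library.

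The second comparison sets conditioned medium with resveratrol against conditioned medium without it. Here 3 genes were higher by the size rule, Socs3, Cebpb and Pim1, and 2 were lower, Lif and Socs1, against 1.53% and 4.97% of all loci. The median log2 ratio was 0.71 for the 10 genes and 0.025 for all loci. The authors' deposited table calls 8 of the 10 higher and 2 lower, against 34.1% and 29.5% of its tested loci.

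Against control, the resveratrol library had 6 members higher by the size rule (Il6, Osmr, Socs3, Pim1, Cebpb and Cebpd) and 1 lower (Lif), where 3.6% and 5.25% of all loci were higher and lower. The members' median log2 ratio was 1.37, that of all loci 0.00021. The authors' deposited table calls 8 members higher and 2 lower, beside 34.1% of tested loci higher and 34.1% lower. The 3 comparisons share their libraries and are not independent. With a pseudocount of 5 FPKM in place of 1, Pim1 and Cebpd no longer passed the size rule in conditioned media over control, nor Lif, Socs1 and Pim1 in resveratrol over conditioned media, nor Lif in resveratrol over control. In 8 of the 10 genes FPKM ascended from control through conditioned media to resveratrol, a pattern of any size that 22.6% of all loci show, and Lif and Socs1 were the exceptions.

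**Figure D1:**
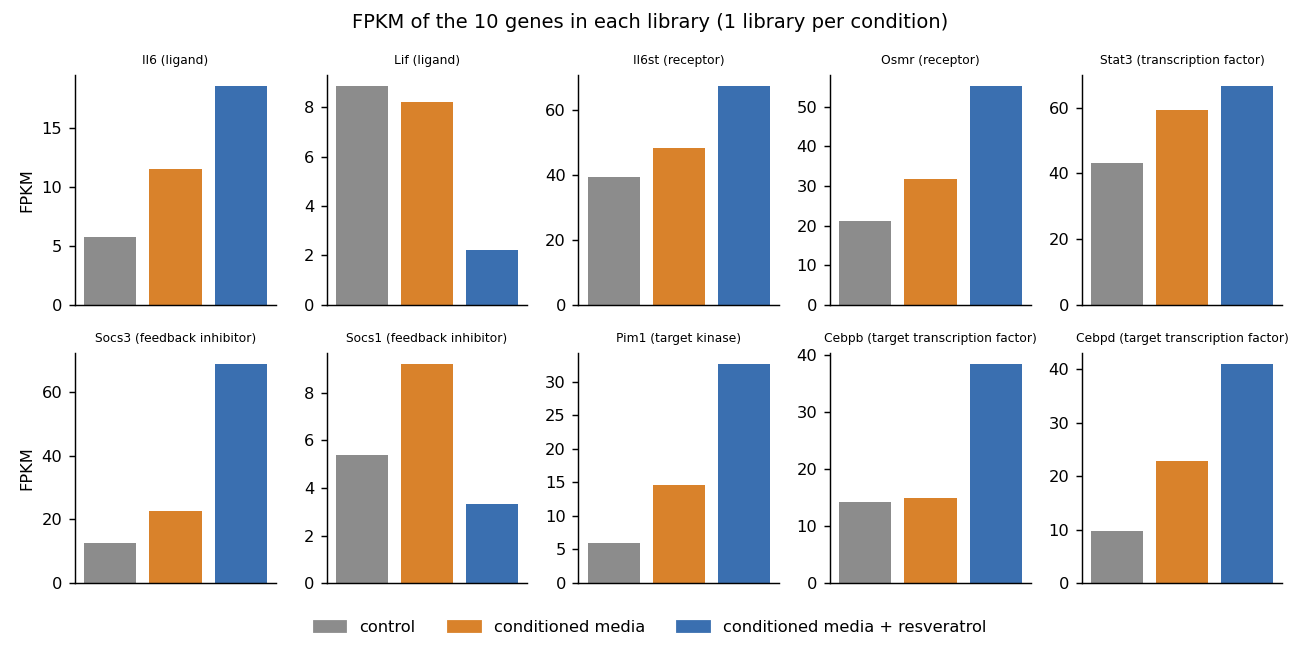
FPKM (vertical axis, from 0, with its own scale in each panel) of the 10 genes in the control, conditioned media, and conditioned media with resveratrol libraries, 1 bar per library and no error bars since each condition has 1 library. In 8 panels the bars ascend from left to right, while Lif and Socs1 have their lowest bar with resveratrol, at 2.22 and 3.34 FPKM.

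The ligands parted from each other. Il6 encodes interleukin 6, a cytokine that contracting and inflamed muscle secretes, and lies at chromosome 5, positions 30013161 to 30019968 of mm10. It stood at 5.72, 11.5 and 18.6 FPKM, lowest in control and highest with resveratrol. The log2 ratio for conditioned media over control was 0.90, just short of the size rule. After rescaling FPKM to a common total it was 1.07 over all loci and 0.82 over loci longer than 200 bases. For resveratrol over conditioned media the log2 ratio was 0.65. The sum of the unrescaled steps, 1.54, passed the rule, and placed Il6 94th from the top among 11211 genes. The authors' deposited table gives log2 fold changes without a pseudocount of 1.01 (SE 0.41) and 0.69 (SE 0.30) for these steps.

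Lif encodes leukaemia inhibitory factor, which signals through the LIF receptor and gp130 and is known to promote myoblast proliferation. It lies at chromosome 11, positions 4257568 to 4272514. Its FPKM of 8.88, 8.20 and 2.22 were close to each other in control and conditioned media and low with resveratrol. The log2 ratio for conditioned media over control was -0.10. After FPKM were rescaled to a common total it was 0.072 over all loci and -0.18 over loci longer than 200 bases. The direction of Lif there therefore depends on the scaling. The authors' deposited table does not call that step, with a log2 fold change of -0.12 and an implied 95% interval from -0.47 to 0.24. With resveratrol the log2 ratio over conditioned media was -1.51, and the FPKM in conditioned media was 3.69 times that with resveratrol. That ratio was the 150th lowest among 11211 genes. The ratio of Il6 to Lif FPKM went from 0.644 in the control library through 1.40 to 8.36 in the resveratrol library.

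No other ligand of the family passed the size rule. Of 10 ligand genes, 8 had a locus of their own and 4 of these, Il6 and Lif included, a mean of 1 FPKM or more. Osm and Il27 were listed at 0 in all 3 libraries. Ctf1, cardiotrophin 1, stood at 5.47, 4.68 and 3.95 FPKM. Il11 was at 1.31, 0.646 and 0.819 FPKM, below the filter on level. Cntf and Clcf1 share a locus with another gene and have no value of their own.

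The receptor subunits of the list were higher in both steps, by less than the size rule. Il6st encodes gp130 and lies at chromosome 13, positions 112463732 to 112509464. Levels were 39.5, 48.3 and 67.6 FPKM. Successive log2 ratios of 0.28 and 0.48 are small differences with small errors, since the authors' deposited table implies standard errors of 0.071 and 0.062. Its level exceeded that of Il6 in every library, by 6.90, 4.19 and 3.64 times.

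Osmr encodes the oncostatin M receptor, which pairs with gp130, and lies at chromosome 15, positions 6813577 to 6874874. Its FPKM of 21.1, 31.9 and 55.3 were lowest in control and highest with resveratrol. The steps came to log2 ratios of 0.57 and 0.78, and together to 1.35 over control, which passed the size rule. The authors' deposited table implies standard errors of 0.096 and 0.075 for the 2 steps. Osmr therefore came nearer to its partner, the Il6st to Osmr ratio being 1.87, 1.52 and 1.22.

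The other receptors did not share 1 pattern. Lifr, the receptor for LIF, stood at 16.0, 23.5 and 19.7 FPKM, above control in both conditioned media libraries and lower with resveratrol than without it. Il6ra, the IL-6 binding subunit, was at 3.03, 5.03 and 5.20 FPKM, nearly level between the conditioned media libraries. Il11ra1, the IL-11 binding subunit, was lowest in conditioned media at 4.66, 3.26 and 6.96 FPKM, and its log2 ratio in the resveratrol step, 0.90, exceeded that of Osmr. The Osmr to Lifr ratio was 1.32 and 1.36 in the libraries without resveratrol and 2.80 in the library with it. Cntfr and Il27ra had a mean below 1 FPKM. Of 7 receptor genes, 5 had a mean of 1 FPKM or more. Among them 0 passed the size rule in either step and Osmr did so over both together, where 12.4% of all loci passed in any comparison.

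Stat3 encodes the transcription factor of the pathway and lies at chromosome 11, positions 100886810 to 100939511. It was the highest of the 10 genes in control and in conditioned media and stood at 43.2, 59.5 and 66.8 FPKM. The log2 ratios were 0.45 and 0.16, so most of its difference lay between control and conditioned media. The authors' deposited table implies standard errors of 0.064 and 0.057 for these steps and calls both.

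Stat2, which transmits type I interferon signals, had its highest level in control, at 71.9, 47.2 and 42.6 FPKM. Stat5a, at 7.61, 11.6 and 9.10 FPKM, and Stat5b, at 9.83, 10.9 and 9.21 FPKM, were highest in conditioned media. Of the kinases and phosphatases upstream, 7 genes had a locus of their own and 6 of these a mean of 1 FPKM or more. None passed the size rule in any comparison, where 12.4% of all loci did, so this count of so few genes says little. Jak1, the main kinase of gp130, was at 43.3, 49.5 and 49.5 FPKM, Ptpn11, the phosphatase SHP2, at 59.7, 41.9 and 42.9 FPKM, and Ptpn2, a phosphatase that acts on JAK and STAT proteins, at 20.4, 23.7 and 30.1 FPKM.

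The feedback inhibitors parted with resveratrol. Socs3 encodes a protein that binds gp130 and JAK kinases and shuts off IL-6 signalling, and lies at chromosome 11, positions 117966087 to 117969991. It stood at 12.7, 22.7 and 68.8 FPKM and with resveratrol was the highest of the 10 genes, having been at position 5 in the other libraries. The log2 ratio was 0.80 in conditioned media over control, short of the size rule, and 1.56 with resveratrol over conditioned media. Both the resveratrol step and the difference from control (2.35, or 5.44 times the control FPKM) placed it 20th from the top among 11211 genes. The authors' deposited table implies standard errors of 0.15 and 0.10 for the steps.

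Socs1 encodes a related inhibitor that acts on JAK kinases and is strongly induced by interferons, and lies at chromosome 16, positions 10783809 to 10785536. Its FPKM were 5.39, 9.23 and 3.34, highest in conditioned media and lowest with resveratrol. The log2 ratio was 0.68 for conditioned media over control and -1.24 for resveratrol over conditioned media, where it passed the size rule. Its error is the widest of the members. The authors' deposited table calls the conditioned media step and also the difference of resveratrol from control. Yet the 95% intervals implied by its statistics run from -0.071 to 1.62 and from -1.92 to 0.53. Those intervals rest on a normal reading of the statistic, which the authors' p-values do not follow. The interval for resveratrol over conditioned media, from -2.58 to -0.35, lies below 0. The Socs3 to Socs1 ratio was 2.35 without conditioned media, 2.46 with it and 20.6 after resveratrol was added.

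Among 12 SOCS, CIS and PIAS genes, 11 had a mean of 1 FPKM or more. Of these, Socs3 was the 1 gene higher and Socs1 the 1 gene lower by the size rule with resveratrol over conditioned media. Over all loci 1.53% were higher and 4.97% lower, and both genes are members, chosen with results from these libraries known. The median log2 ratio of the 11 in this step was 0.040. Socs2, which restrains growth hormone signalling, was highest in conditioned media, as Socs1 was, at 26.2, 36.7 and 21.4 FPKM. Socs5 stood at 21.7, 18.6 and 11.0 FPKM and Pias2, a SUMO ligase, at 22.3, 20.3 and 20.9 FPKM.

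**Figure D2:**
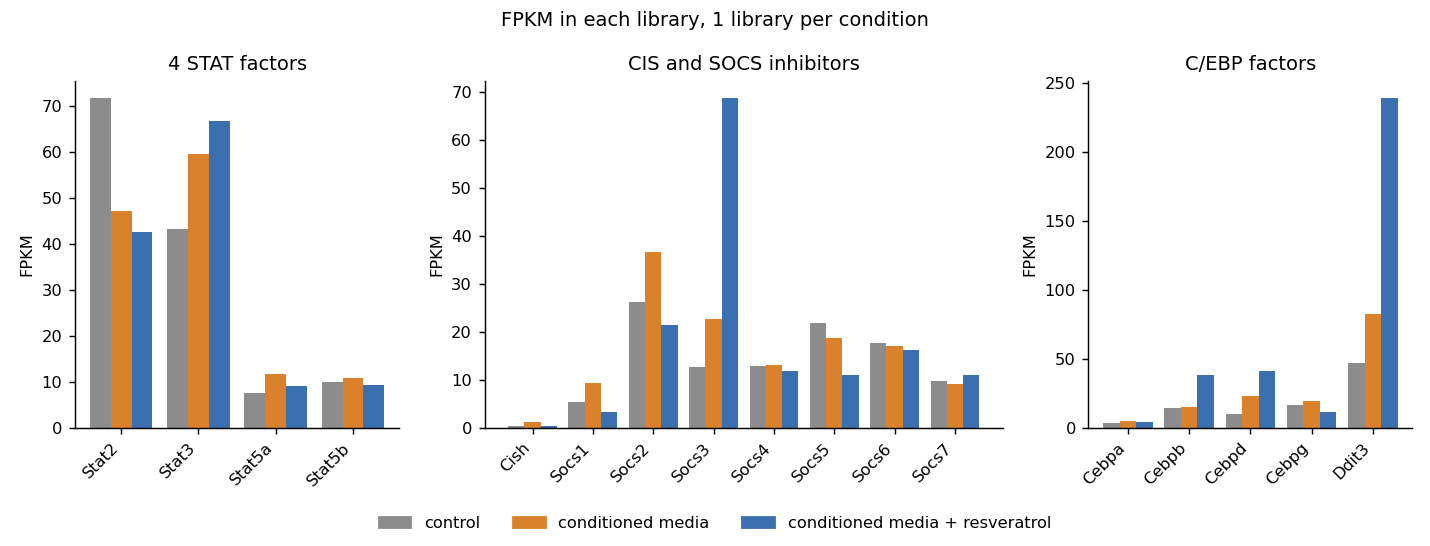
FPKM (vertical axes, from 0, with separate scales) of 4 STAT factors, of CIS and SOCS inhibitors and of C/EBP factors in the 3 libraries, 1 bar per library without error bars. Stat3 ascends while Stat2 descends, Socs3 stands at 68.8 FPKM with resveratrol where no other inhibitor plotted exceeds 36.7 in any library, and Cebpb, Cebpd and Ddit3 are highest with resveratrol.

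Pim1, a serine kinase that promotes survival and is a standard STAT3 target, lies at chromosome 17, positions 29490768 to 29496112. It stood at 6.02, 14.7 and 32.7 FPKM, and was the 1 member that passed the size rule in both steps, with log2 ratios of 1.16 and 1.10. The resveratrol library had 5.43 times the control FPKM, and the authors' deposited table implies standard errors of 0.25 and 0.17 for the steps. Pim3, a close relative, was at 13.3, 13.1 and 31.8 FPKM, and so differed in the resveratrol step alone (log2 ratio 1.21). Pim2 shares a locus with Otud5 and has no value of its own.

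Cebpb encodes C/EBPβ, a transcription factor of the acute phase response, and lies at chromosome 2, positions 167688915 to 167690432. At 14.1, 14.9 and 38.5 FPKM it was nearly level between control and conditioned media and high with resveratrol. The log2 ratio was 0.067 in the first step. After rescaling to a common total it was 0.25 over all loci and -0.017 over loci longer than 200 bases, so its direction there depends on the scaling. In the resveratrol step the unrescaled log2 ratio was 1.31, the 54th highest of 11211 genes. The authors' deposited table does not call the first step, whose implied 95% interval runs from -0.38 to 0.53, and implies 1.00 to 1.74 for the second.

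Cebpd encodes C/EBPδ, which inflammatory cytokines induce through STAT3. Its FPKM of 9.72, 22.8 and 41.0 gave log2 ratios of 1.15 and 0.82, past the size rule in the first step. The authors' deposited table implies standard errors of 0.36 and 0.22 for them. The value is less certain than those of the other members, because its locus, chromosome 16, positions 15887232 to 16146851, has the same span as the locus of Spidr on the opposite strand, and the sources used here do not state whether counting used strand. Spidr stood at 8.36, 17.8 and 10.2 FPKM, high in conditioned media like Cebpd but not with resveratrol. No other member's locus overlaps another locus of the deposited table, but GENCODE places a gene of the opposite strand over part of Stat3 (Stat5a), Pim1 (the antisense gene Gm26885) and Cebpb (Tmem189), so reads of these genes may not be separable. The FPKM of Cebpd was 0.687 times that of Cebpb in control, 1.54 times in conditioned media and 1.07 times in the resveratrol library.

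Other C/EBP genes were divided. Ddit3, which encodes the stress factor CHOP, was at 46.6, 82.3 and 239 FPKM and higher by the size rule in the resveratrol step (log2 ratio 1.53). Cebpg, at 16.6, 19.1 and 11.7 FPKM, was lowest with resveratrol, Cebpa stood at 3.47, 4.78 and 4.06 FPKM, and Cebpe was listed at 0 in all libraries.

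**Figure D3:**
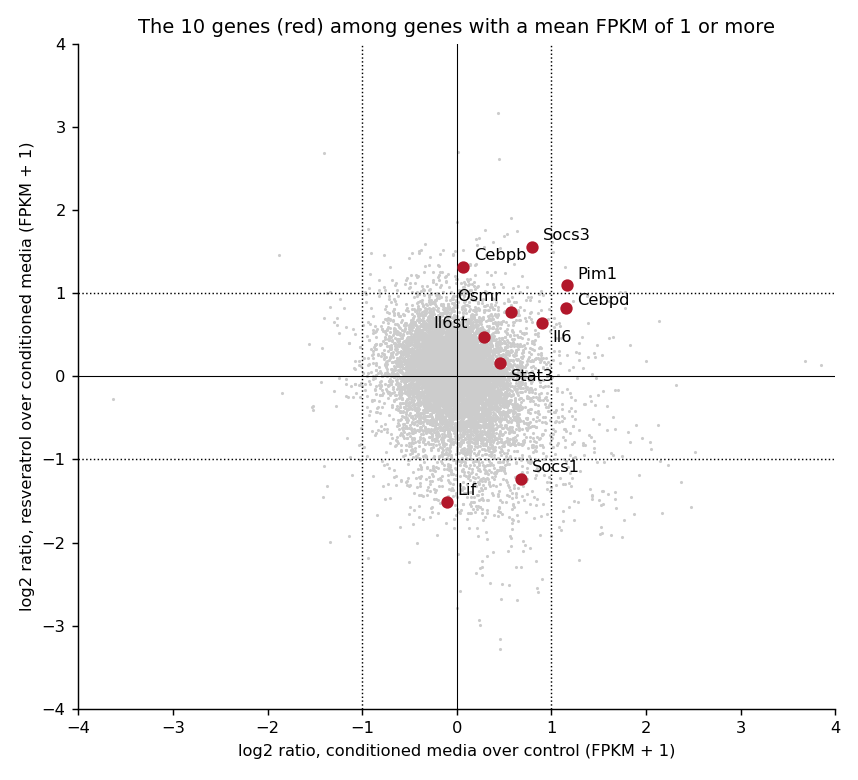
Log2 ratio of conditioned media over control (horizontal axis) against log2 ratio of resveratrol over conditioned media (vertical axis), both of FPKM + 1, for 11211 genes (grey, 21 of them outside the axes) with the 10 members in red and dotted lines at the size rule of 1. Pim1 lies past both upper lines, Socs3 and Cebpb past the upper line on the vertical axis, and Lif and Socs1 past the lower one, and since conditioned media enters both axes the ratios are not independent.

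The genes whose pair of successive log2 ratios lay nearest to a member's were found among 10683 genes by straight-line distance over the 3 libraries. Nearest to Socs3 was Ddit3, at a distance of 0.029, and the next, Ccl5, a chemokine, at 27.5, 56.3 and 175 FPKM, was 0.22 away. Hist1h4j followed at a like distance. Nearest to Il6 were Lbp, which binds lipopolysaccharide, at 0.528, 1.86 and 3.39 FPKM, Nfkbia, the NF-κB inhibitor, at 21.6, 41.9 and 65.3 FPKM, and Pxmp4, with distances of 0.033, 0.036 and 0.043. Socs1 had Tlr2, a receptor for bacterial lipoproteins, at 12.7, 21.3 and 8.45 FPKM as its nearest gene (0.024), then Ddit4l and Mastl. Lif had Trim47, Igf1, the growth factor gene, at 8.81, 7.65 and 2.01 FPKM, and Ccdc80.

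Pim1 had no close neighbour, its nearest genes Tcp11l2, Slpi and Hist1h4h lying 0.21 to 0.24 away. Nearest to Cebpd were Hist1h4h at 0.053, Cirbp, a cold-inducible RNA-binding protein, at 0.057 and Tcp11l2 at 0.11. The nearest to Cebpb were Arrdc2, Myh8, a perinatal myosin, and Csrp3, a muscle LIM protein, at distances from 0.080 to 0.13. For Il6st these were Shpk, Rgl3 and Haus1, for Osmr Abtb1, Tmem205 and Auh, and for Stat3 Pyurf, Rad9b and Zbtb10, all within 0.046. Near the centre of the distribution many genes lie close together, so likeness there says little.

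Besides Pim1, several genes commonly listed as STAT3 targets were higher in conditioned media. Of 19 such genes with a locus of their own, 17 had a mean of 1 FPKM or more and could meet the size rule. Of these, 4 were higher and 0 lower: Pim1, Serpina3n, Lcn2 and Saa3, where 1.98% of all loci were higher and 0.751% lower. Serpina3n, a serine protease inhibitor of the acute phase, had a listed level of 0 for the control library, 13.4 FPKM in conditioned media and 14.9 FPKM with resveratrol, so no fold is given. Lcn2, lipocalin 2, was at 0.0778, 2.69 and 6.47 FPKM and Saa3, a serum amyloid A, at 1.49, 4.40 and 6.67 FPKM. Serpina3n and Lcn2 passed the filter on level only through the conditioned media libraries, so their place in the count follows from those levels. The authors' deposited table does not call Lcn2 or Saa3 in conditioned media over control.

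In the resveratrol step 5 of the 17 were higher and 1 lower by the size rule, against 1.53% and 4.97% of all loci. Those higher were Pim1, Pim3, Lcn2 and the AP-1 genes Junb, at 103, 127 and 259 FPKM, and Fos, at 2.60, 3.18 and 11.5 FPKM. The lower gene was Ccnd1, cyclin D1, at 43.8, 33.0 and 9.55 FPKM (log2 ratio -1.69), alongside the lower markers of dividing cells given above. Il4ra, the interleukin 4 receptor, ascended like Pim1 at 11.1, 21.0 and 40.4 FPKM and passed the rule over control (log2 ratio 1.78). Hif1a stood at 89.5, 131 and 103 FPKM, Vegfa at 138, 134 and 114 FPKM and Timp1, a metalloproteinase inhibitor, at 369, 417 and 696 FPKM. Targets thus differed in both directions.

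Of 70 genes in 7 lists of the pathway, 66 had a locus of their own and 53 of these a mean of 1 FPKM or more. The size rule was passed in at least 1 comparison by 18 of the 53, 8 of them members, and by 12.4% of all loci. Without the 10 members 56 genes remain, of which 43 had a mean of 1 FPKM or more and could meet the rule. In conditioned media over control 3 of the 43 were higher and 0 lower, where 1.98% and 0.751% of all loci were. The 3 were Serpina3n, Lcn2 and Saa3, of which Serpina3n and Lcn2 passed the filter only through the libraries where they were high. With resveratrol over conditioned media 5 were higher and 1 lower, against 1.53% and 4.97% of all loci. Of the 43, 27 had higher and 16 lower values in the first step, with a median log2 ratio of 0.19. In the second step 21 had higher and 22 lower values, and the median was -0.0015, against 0.025 for all loci. With resveratrol over control 8 were higher and 2 lower by the size rule, against 3.6% and 5.25% of all loci. There 27 had higher and 16 lower values, and the median was 0.18. The members were chosen with results from these libraries known, so this contrast is a description.

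**Figure D4:**
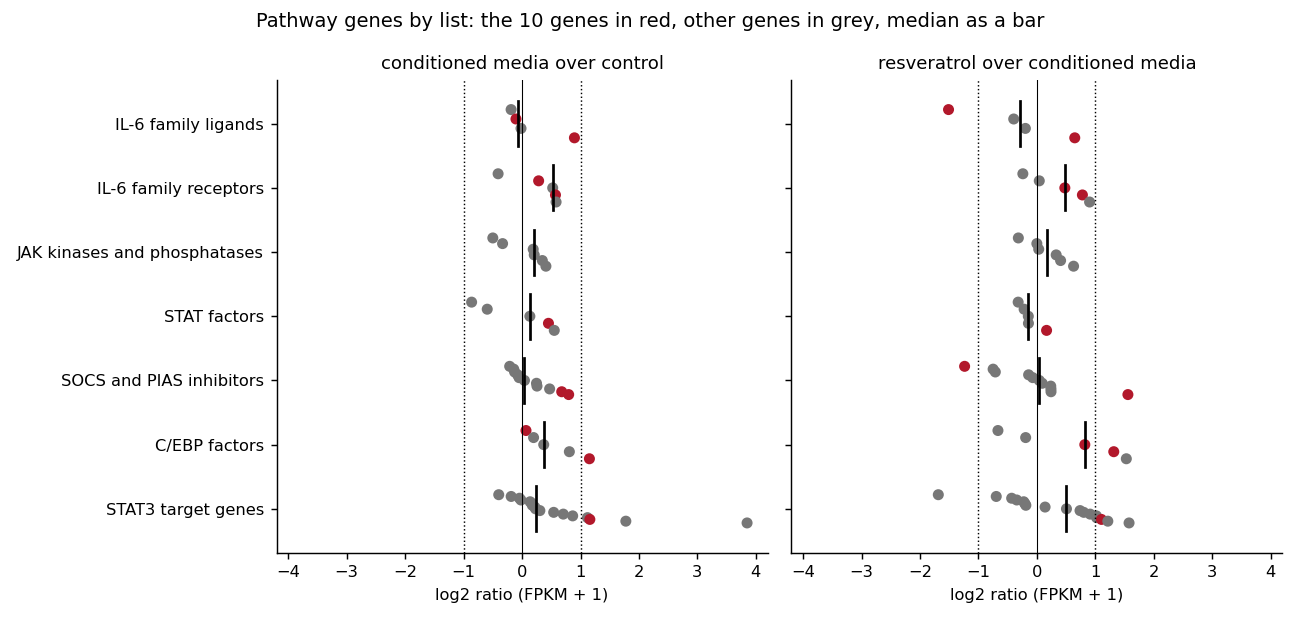
Log2 ratio of FPKM + 1 (horizontal axis) of each pathway gene with a mean of 1 FPKM or more, by list, for conditioned media over control (left) and resveratrol over conditioned media (right). Members are red, other genes grey, the bar is the list's median and dotted lines mark the size rule; C/EBP factors have the highest median in the resveratrol step, 0.82, and Lif, Socs1 and Ccnd1 are the genes past the lower line.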

How the data were processed

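RNA-seq of 3 libraries, 1 per condition, was analysed from the authors' deposited gene table, which has the layout of Cuffdiff output with 24401 loci. Groups follow the treatment labels. The submitters' processing notes name Cuffdiff 2.2.1.3, Cufflinks 2.2.1.0, TopHat2 2.1.0, Bowtie, Trim Galore 0.4.3.1, FastQC 0.69 and the mm10 build. Which annotation, strand option and library scaling were used is not stated in those sources. FPKM values were computed by the authors, per the file headers. The log2 fold change, test statistic (a score), p-values and q-values are the authors' values in the deposited table. Depth is unknown.

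With 1 library per group no test was made. Log2 ratios used a pseudocount of 1 FPKM, and the size rule needs an absolute log2 ratio of 1 and a mean of 1 FPKM. The rule was run on simulated data with seeded changes well past its threshold and little noise. That run checks the calculation and does not measure the rule's errors in real libraries. Standard errors are the authors' log2 fold change over their test statistic, on the assumption that the statistic is that ratio, and 95% intervals are normal intervals from it. The authors' p-values do not follow a normal reading of the statistic, so these errors and intervals need not match the authors' calls. Positions are 1-based. Promoters come from RefSeq (GRCm38.p6) and gene spans from GENCODE M21, the same build. Alternatives were other pseudocounts, filters, thresholds, scalings, summed loci and the authors' calls. The named pathway genes are those past the size rule in any comparison, those at 0, and up to 3 more per list by level. For each member the 3 nearest patterns were taken, without predicted models, clone names or small RNAs. The members, lists and motifs were chosen with earlier results of these data known, and 4 motifs (C/EBP TTGNGCAAT, κB, interferon response and AP-1) after the promoters were read. Python 3.11.15, pandas 2.3.3 and numpy 2.4.6 were used. Some genes of the pathway lists enter the counts but are not reported here by name.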

Additional observations from a re-analysis of the deposited data

How the results depend on the processing

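Of 210 log2 ratios of members under other settings, 200 kept their direction and side of the size rule, 6 fell below the rule (all at a pseudocount of 5), 2 rose past it (Il6 in conditioned media over control), and 2 turned sign: Lif in conditioned media over control after rescaling to a common total over all loci (0.0716), and Cebpb there after rescaling over loci longer than 200 bases (-0.0167). Over all loci, rescaling shifted the median to 0.17 for conditioned media and 0.18 for resveratrol, each over control, and over longer loci to -0.092 and -0.13. The cause was not tested. Of 120 counts, 95 stayed within 1.5 times. Some of the ratios and counts that stayed could not have moved. Each member has 1 locus, so summing over loci leaves its ratios as they were. Each also has a mean of 5.99 FPKM or more, so neither dropping the filter nor raising it to 5 FPKM could change the member counts. With a pseudocount of 5, 0 members were higher in conditioned media over control, 0 lower with resveratrol over conditioned media and 0 lower with resveratrol over control, and among pathway genes 1 was higher in the first comparison, 5 higher and 1 lower in the second, and 1 lower in the third. At a 1.5-fold threshold (log2 of 0.58), 5 members were higher in conditioned media and 6 with resveratrol over conditioned media, and among pathway genes 12 were higher and 2 lower, 16 higher and 7 lower, and 6 lower over control. By the authors' deposited calls, 8 members were higher in each step and 2 lower over control, and pathway genes were 29 higher and 7 lower, 23 higher and 19 lower, and 29 higher and 12 lower. Pathway genes higher in conditioned media numbered 8 after rescaling over all loci and 3 at a mean FPKM of 5 or more. A lower count at the larger pseudocount or filter follows from their construction.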

Other observations

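The authors' deposited table gives the same smallest p-value, 5e-05, to members whose test statistics range widely. In the authors' deposited table Il6 has a statistic of 2.44 for conditioned media over control and Socs3 one of 18.7 for resveratrol over control, both with that p-value. Socs1 has a statistic of 1.80 with a p-value of 0.0006 for conditioned media over control and is called in the authors' deposited table. For resveratrol over control its statistic is -1.10 with a p-value of 0.016, and it is called there too. A normal reading of these Socs1 statistics would give larger p-values.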
